A study of Mus musculus with 4 samples.

Results

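Pparg and Cebpd, a pair of transcription factor genes of fat cell formation, moved in opposite directions when C2C12 cells were treated with Bex: Pparg was higher and Cebpd was lower. They were taken as the rows of the authors' deposited table of Bex against Ctrl whose symbol is exactly Pparg or Cebpd, which gave 2 of 536 genes with a symbol of their own, each with 1 row in that table, and the value table holds 35557 transcript clusters in all. A transcript cluster is a set of probes that the array's makers grouped, in most rows of the authors' table for a single gene. None of the 6669 clusters of lowest ID is in that table, and what they measure is not given here. Shares and ranks over all clusters include them. The groups were Bex, confluent cells kept for 48 h in a basal medium for adipogenesis with the compound at 10 µM, and Ctrl, the same cells in that medium alone, with 2 arrays each. C2C12 is a line of mouse myoblasts, muscle precursors that can fuse into myotubes, and both groups therefore carry a muscle background and the adipogenic medium. Bex is known from the study, not from its labels, to be bexarotene, a drug that activates retinoid X receptors (RXRs). One line, one dose and one time were tested, and no label says which of 2 batches of cells an array came from, so the spread between arrays may be partly technical.

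Pparg encodes PPAR gamma, a nuclear receptor that binds DNA as a pair with an RXR, responds to fatty acid-like ligands and switches on the genes of lipid uptake and storage. It is the central regulator of fat cells, white and brown, and the RXR partner can itself be activated by an RXR agonist. Cebpd encodes C/EBP delta, a basic leucine zipper protein that is induced early by the hormones of adipogenic media, in particular glucocorticoids. In the cascade worked out in mouse preadipocytes, C/EBP delta and C/EBP beta come first and act on Pparg, which then stays on with C/EBP alpha, while C/EBP delta declines. C/EBP delta is also known as an inflammation-induced factor of acute-phase genes.

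The promoters of Pparg are shown because the cascade joins both genes there and because a single array value covers transcripts from all starts. RefSeq (GRCm38.p6) holds 3 start windows for Pparg on chromosome 6, on the plus strand, and 4 curated mRNAs. The 250 bases before each start are chr6:115360894-115361143, chr6:115362099-115362348 and chr6:115421816-115422065, and the second and the third start lie 1205 and 60922 bases after the first. The most distant start is, from general knowledge, that of Pparg2, the form typical of fat cells. Capitals mark matches on either strand to the C/EBP motif TTGCNNAA, the nuclear receptor half-site AGGTCA, its direct repeat with 1 base between (DR1) and the TATA motif TATAAA; where DR1 matched, it would hold the half-site.
Pparg start 1: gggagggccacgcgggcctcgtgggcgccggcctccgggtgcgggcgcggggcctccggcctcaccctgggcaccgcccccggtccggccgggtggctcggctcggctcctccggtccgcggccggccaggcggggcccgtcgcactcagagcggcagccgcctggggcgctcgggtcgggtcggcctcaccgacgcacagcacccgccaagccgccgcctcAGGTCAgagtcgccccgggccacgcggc
Pparg start 2: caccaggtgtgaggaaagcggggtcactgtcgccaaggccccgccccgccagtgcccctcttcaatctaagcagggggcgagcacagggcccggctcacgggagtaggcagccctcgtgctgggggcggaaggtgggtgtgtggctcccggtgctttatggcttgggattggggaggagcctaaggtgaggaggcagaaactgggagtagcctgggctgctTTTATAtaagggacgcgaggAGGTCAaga
Pparg start 3: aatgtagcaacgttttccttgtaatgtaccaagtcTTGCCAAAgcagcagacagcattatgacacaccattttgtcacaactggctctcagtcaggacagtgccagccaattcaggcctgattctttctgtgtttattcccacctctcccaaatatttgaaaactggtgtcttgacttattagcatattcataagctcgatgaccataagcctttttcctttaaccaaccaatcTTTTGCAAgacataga
The windows differed in base composition, with 82.4%, 63.6% and 40.8% G or C, against a median of 52.4% over 32851 such windows of 27025 genes. Both C/EBP matches lay before start 3, at 215 to 208 and at 16 to 9 bases before it, and none lay before the other starts; 9.56% of all windows hold at least 1. Starts 1 and 2 each had 1 half-site, which 14% of all windows hold, at 28 to 23 and at 9 to 4 bases before the start. Start 2 also had 1 TATA match, on the opposite strand, 29 to 24 bases before it. Counted on either strand, 12.4% of windows hold such a match. None of the 3 had a DR1 match, which only 0.0335% of windows hold. These are matches of letters, and the arrays cannot say which start the Pparg transcripts came from. Cebpd, on chromosome 16, has 1 curated mRNA in the same tables.

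Pparg read 9.60 and 9.63 on the Bex arrays, against 7.84 and 7.69 on the Ctrl arrays, on the log2 scale of RMA values. Both Bex arrays lay above both Ctrl arrays, and the 1.76 between the nearest arrays of the groups was 11.6 times the larger of the spreads between replicates, 0.03 for Bex and 0.15 for Ctrl. The mean was 9.62 ± 0.02 with Bex and 7.76 ± 0.11 in Ctrl (SD, n = 2 each), a log2 difference of 1.85 ± 0.09 (standard error of the limma fit), or 3.62-fold. Each of the 4 ways of setting a Bex array against a Ctrl array gave between 3.39-fold and 3.86-fold. In cultures read as a whole, more cells that express a gene and more of its RNA per cell cannot be told apart.

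Cebpd read 7.56 and 7.71 on the Bex arrays, against 8.27 and 8.19 on the Ctrl arrays. Both Bex arrays lay below both Ctrl arrays, but more narrowly: the nearest arrays of the groups were 0.48 apart, 3.13 times the larger replicate spread, which was 0.15 for Bex, against 0.08 for Ctrl. The mean was 7.63 ± 0.11 with Bex and 8.23 ± 0.05 in Ctrl (SD, n = 2 each), a log2 difference of -0.60 ± 0.10 (standard error of the limma fit), which is 1.51-fold lower with Bex. Set array against array, Bex 1 was 1.64-fold below Ctrl 1 and 1.55-fold below Ctrl 2, whereas Bex 2 was 1.47-fold below Ctrl 1 and 1.40-fold below Ctrl 2. The size of 1.5-fold used to build the authors' table was therefore reached by the Bex 1 array alone and not by Bex 2. The mean difference fell short of that size when Bex 1 (-0.52) or Ctrl 1 (-0.56) was left out and when the arrays were shifted to a common median (-0.57).

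**Figure D1:**
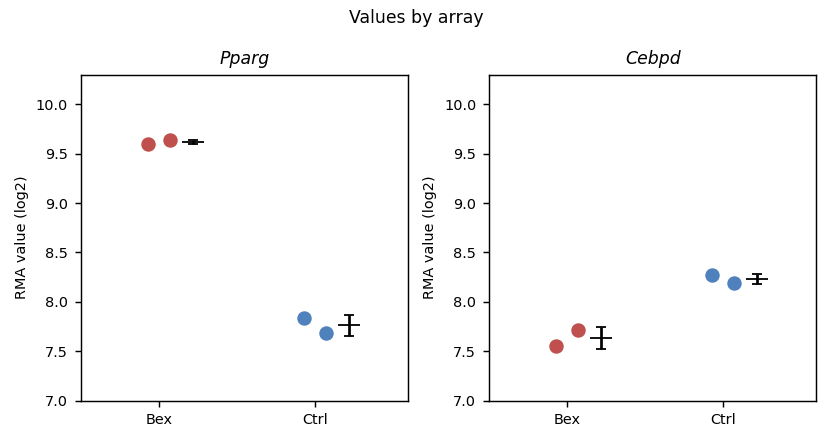
RMA values (log2) of Pparg (left panel) and Cebpd (right panel) on each array, Bex left of Ctrl; points are arrays, and the black dash with its bar is the mean with SD (n = 2). The Pparg points of Bex lie near 9.6 and those of Ctrl below 8, while the Cebpd points of Bex lie below those of Ctrl with a gap of 0.48.

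These differences are descriptions and carry no p-value here, because both genes were chosen from a table built on the same contrast. In the authors' deposited table Pparg has log2 averages of 9.48 with Bex and 7.67 in Ctrl, a fold change of 3.51, an unadjusted p-value of 0.00468 and an FDR p-value of 0.329. For Cebpd the authors' deposited table gives 7.54 with Bex and 8.16 in Ctrl, a signed fold change of -1.54, an unadjusted p-value of 0.0130 and an FDR p-value of 0.359. Pparg stands 29th by size among the 347 higher rows of the authors' deposited table, and Cebpd 192nd among the 212 lower ones. Cebpd is thus close to the limit, with 20 of those lower rows smaller than it and the smallest at -1.51 in the authors' deposited table. Just outside the limit in the value table, and without a name here, cluster 10606069 was 1.499-fold lower with Bex. Rows of the authors' table are 1.57% of the clusters, 0.976% higher and 0.596% lower. Differences of 1.5-fold or more in the value table were found for 6.45% of all clusters, 3.62% higher and 2.82% lower, and groups that do not overlap were found for 44.7% of all clusters.

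Over all clusters ordered by their difference, Pparg was 47th from the higher end and Cebpd 963rd from the lower end of 35557. With the 6669 clusters of lowest ID left out, down to where the authors' table begins, they were 29th and 334th of 28888. The SD between replicates, pooled over the groups, was 0.08 for Pparg and 0.09 for Cebpd, and 31.6% and 35.9% of all clusters had a smaller one. Both genes were thus measured with a similar spread, and what set them apart was the size of the difference. The arrays were alike as a whole, with medians of 5.76 and 5.77 for Bex and 5.78 and 5.80 for Ctrl, and Pearson's r across clusters, which are not independent, of 0.9862 to 0.9910 between arrays.

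**Figure D2:**
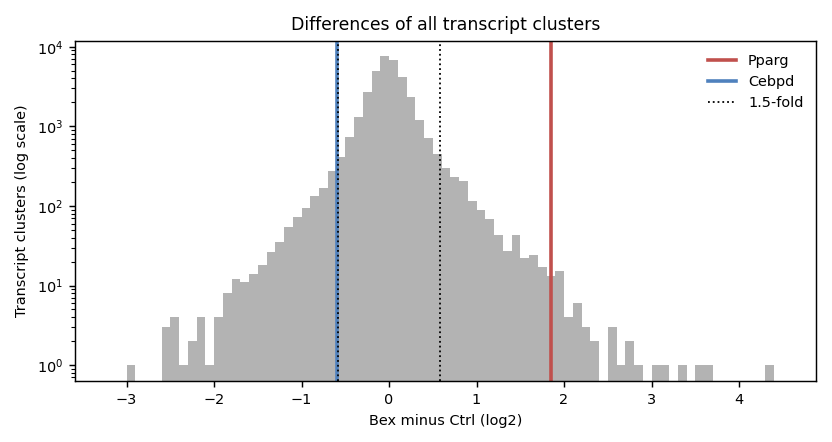
Number of transcript clusters (log scale) by Bex minus Ctrl difference (log2) in bins of 0.1, with Pparg and Cebpd as solid lines and 1.5-fold as dotted lines. Pparg at 1.85 lies in the thin right tail, and Cebpd at -0.60 lies just beyond the 1.5-fold line on the left.

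The test across all clusters (limma, adjusted p under 0.05) called 0 of 35557, that is 0%, with a lowest limma adjusted p of 0.0682, although 4189 clusters had an unadjusted p under 0.05. When its prior variance was allowed to vary with signal level (the variance-trend fit), limma called 427, or 1.2%, 271 of them higher (0.762%) and 156 lower (0.439%). Names came only from the authors' table, whose rows had already passed 1.5-fold, so listed genes outside it were not analysed here. That selection, made on the same contrast, raises the share of calls: of the 536 named genes the variance-trend fit called 301 (56.2%), 194 higher (36.2%) and 107 lower (20%), and calls among list genes are to be read against these shares and not against those of all clusters. The 46 named genes of all lists other than Pparg and Cebpd had 0 calls in the main test and 31 in the variance-trend fit.

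The relatives of both genes were almost all outside the named rows, as most clusters were: rows of the authors' table are 1.57% of all clusters. A gene outside them was not looked up, so its difference is not known here. This holds for the flanking genes below as well. Of the receptors closest to Pparg, namely Ppara, Ppard, Rxra, Rxrb and Rxrg, 0 of 5 were named, and of the C/EBP family other than Cebpd 0 of 6, Cebpa and Cebpb included. Of 11 further receptors that pair with RXRs only Rara, a retinoic acid receptor, was named, with 8.97 and 8.81 on the Bex arrays, against 9.49 and 9.54 on the Ctrl arrays. Its log2 difference of -0.62 ± 0.10 was close in size to that of Cebpd and opposite to that of Pparg, and it passed in neither fit. None of the 10 protein-coding genes flanking Pparg on chromosome 6 (from Atg7 to Tmem40) and none of the 10 flanking Cebpd on chromosome 16 (from Efcab1 to Fgd4) was among the named genes.

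Among regulators that act on or beside Pparg, 7 were named and they were split. Of 17 other factors that favour fat cell formation 2 were named. Egr2 (Krox20), an early inducer of C/EBP beta, read 5.41 and 5.67 with Bex, against 6.30 and 6.33 in Ctrl (log2 difference -0.77 ± 0.12), and Srebf1, the lipogenic factor that also helps make PPAR gamma ligands, read 9.04 and 8.84 with Bex, against 8.13 and 8.29 in Ctrl (0.74 ± 0.12). Egr2 was thus lower and Srebf1 higher, and neither passed in either fit. With 1 named gene in each direction out of 17 listed, no order of early and later factors can be read. Of 21 genes listed here as holding back fat cell formation 3 were named. Tcf7l2, a transcription factor of Wnt signalling, read 9.78 and 9.75 with Bex, against 10.43 and 10.35 in Ctrl (-0.62 ± 0.08), and passed only in the variance-trend fit (limma adjusted p = 0.0283, and 0.169 in the main test). Notch1, a receptor, was lower at -0.58 ± 0.10 and Id2, an inhibitor of basic helix-loop-helix factors, was higher at 0.95 ± 0.14, and both passed in neither fit. The place of Id2 in this list is only a label, and whether it holds back or favours fat cell formation in these cells was not tested.

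Of 14 co-regulators of PPARs 2 were named, both higher. Lpin1, which coactivates PPARs besides its role in triglyceride synthesis, read 8.05 and 7.92 with Bex, against 6.61 and 6.45 in Ctrl (log2 difference 1.46 ± 0.10), and passed in the variance-trend fit alone (limma adjusted p = 0.0194, and 0.0955 in the main test). Ppargc1a, the coactivator that drives mitochondrial genes, read 5.26 and 5.60 with Bex, against 4.77 and 4.79 in Ctrl (0.65 ± 0.14), and passed in neither fit. Its signal was low, as the lowest 30% of clusters lie below a mean of 4.57.

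Targets of PPARs stood on the side of Pparg. Of 40 listed genes 18 were named (45.0%), and 18 of 18 were higher with Bex, 16 of them past the variance-trend threshold and 0 past that of the main test; the exceptions were Agpat2 and Ucp3. The median log2 difference of the 18 was 1.49, against 0.67 over the 536 named genes (336 higher, 200 lower) and -0.01 over all clusters. The named genes were selected for size and p-value, and the list was chosen with these results known. The difference of Pparg itself lay inside their range of 0.95 to 3.51: 5 targets, the fatty acid carriers Fabp3 and Fabp4, the transporter Cd36, the triglyceride enzyme Dgat2 and the lipase Mgll, had larger increases than Pparg, and 13 had smaller ones. Cd36 had a low signal in Ctrl, at 5.01 and 4.59. Plin1, a lipid droplet coat protein, came nearest below Pparg, reading 7.69 and 8.14 with Bex, against 6.27 and 6.17 in Ctrl (1.69 ± 0.18).

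Around Cebpd the picture was mixed. Of 23 acute-phase and inflammatory genes 7 were named, 5 lower and 2 higher with Bex, with a median log2 difference of -0.74, and the variance-trend fit called 3 lower and 2 higher and the main test 0. All 5 lower ones, Orm1, Saa3, Saa2, Cxcl12 and Cxcl5, had a larger decrease than Cebpd, led by the acute-phase protein Orm1 at -2.46 ± 0.11, as a table whose limit lies next to Cebpd largely requires of any lower row. Saa2 had a low signal, at 4.40 and 4.28 with Bex, against 5.11 and 5.36 in Ctrl. Ptgs2, the inducible cyclooxygenase, and Cp, the copper-carrying plasma protein ceruloplasmin, were higher, at 1.38 ± 0.14 and 1.92 ± 0.09. Of 21 further glucocorticoid-responsive genes 8 were named, 5 lower and 3 higher, with 4 and 2 called by the variance-trend fit and 0 by the main test. Fkbp5, a co-chaperone of the glucocorticoid receptor, read 8.08 and 7.86 with Bex, against 9.01 and 9.03 in Ctrl (-1.06 ± 0.11), and Tsc22d3, the glucocorticoid-induced leucine zipper, was lower at -0.87 ± 0.09. Each of the 5 lower genes, Adh1, Errfi1, Fkbp5, Tsc22d3 and Sgk1, had a larger decrease than Cebpd, while Ddit4, Fam107a and Angptl4 were higher; Angptl4 is also in the PPAR target list. Of 14 other genes that respond to STAT3 and cytokines, as Cebpd does, 2 were named and both were lower, the receptor Lifr at -0.73 ± 0.09 and the protease inhibitor Timp1 at -0.78 ± 0.11, both called by the variance-trend fit only.

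**Figure D3:**
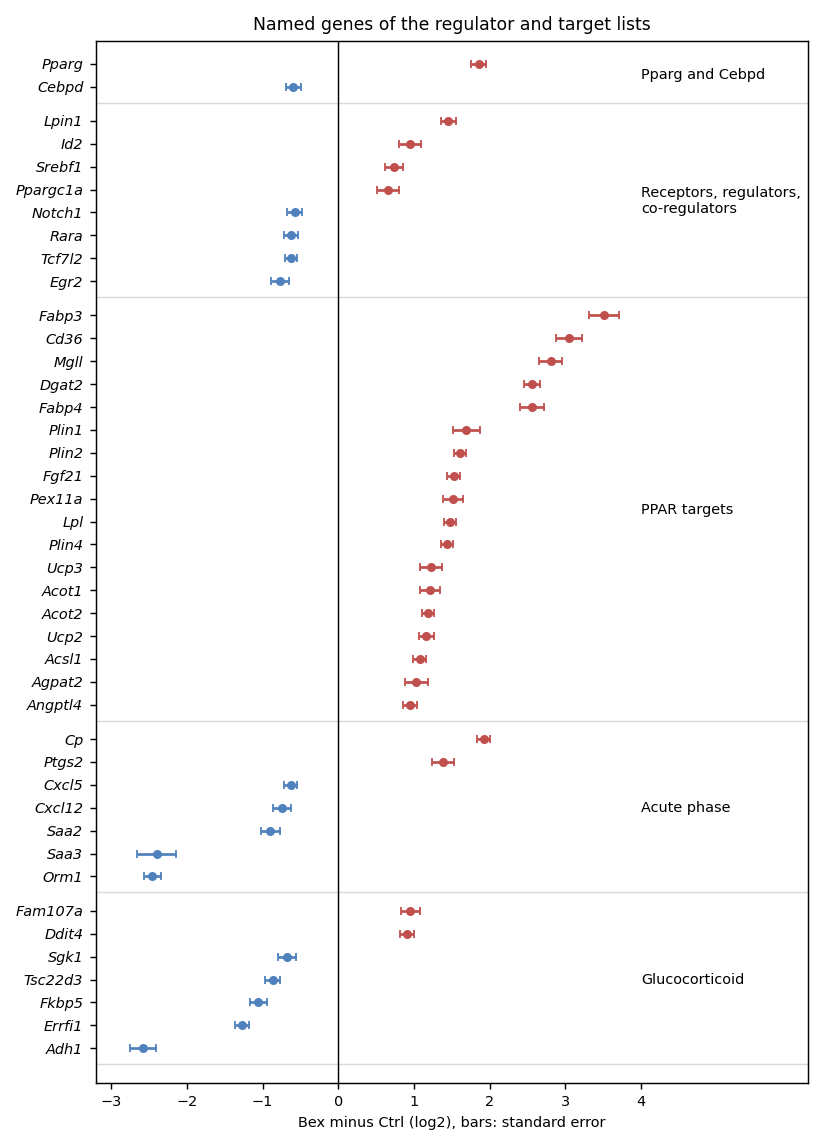
Bex minus Ctrl difference (log2) with the standard error of the limma fit for Pparg, Cebpd and the named genes of the receptor, regulator, co-regulator, target, acute-phase and glucocorticoid lists (each gene drawn once, red higher and blue lower with Bex). All 18 PPAR targets lie right of 0 with Pparg, and the 5 lower genes of each of the last 2 lists lie further left than Cebpd.

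As to the cells themselves, 3 of 14 myoblast and muscle markers were named. The satellite cell factor Pax7 read 9.00 and 9.04 with Bex, against 9.66 and 9.58 in Ctrl, which is the direction of Cebpd, and Ckm and Myh3, genes of differentiated muscle, were higher at 0.72 ± 0.14 and 0.96 ± 0.16, the direction of Pparg. Pax7 was called by the variance-trend fit only, and Ckm and Myh3 by neither fit. Of 12 markers of leukocytes, endothelium and epithelium only Cd14 was named, with 7.44 and 7.46 on the Bex arrays, against 6.35 and 6.74 on the Ctrl arrays, and it was called by neither fit. Its part in the values of Pparg and Cebpd was not tested.

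The named genes whose 4 array values were most like those of each gene were found by the root mean square distance (log2) between profiles centred on their own mean over the 4 arrays. Nearest to Pparg were Cp (0.06), the microsomal glutathione transferase Mgst1 (0.06), the triglyceride enzyme Dgat1 (0.06), the granzyme Gzme (0.07) and the epoxide hydrolase Ephx2 (0.07). Gzme had a low signal in Ctrl, at 4.11 and 4.14. Dgat1 read 10.91 and 11.06 with Bex, against 9.11 and 9.10 in Ctrl, a difference of 1.88 ± 0.09 beside 1.85 for Pparg. Nearest to Cebpd were the cytochrome P450 gene Cyp1b1 (0.02), the Hedgehog-release protein gene Disp1 (0.02), Nrm of the nuclear envelope (0.02), the chemokine gene Cxcl5 (0.02) and Tmem123 (0.02). Cyp1b1 read 9.47 and 9.60 with Bex, against 10.20 and 10.10 in Ctrl, so that, as in Cebpd, Bex 1 was the lowest and Ctrl 1 the highest of its arrays. Of the 535 other named genes 15 lay within 0.1 of Pparg and 71 within 0.1 of Cebpd. Cebpd lies at the edge of the table, next to its 1.5-fold limit. With 4 arrays in 2 groups such likeness describes mainly the size and direction of the difference.

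**Figure D4:**
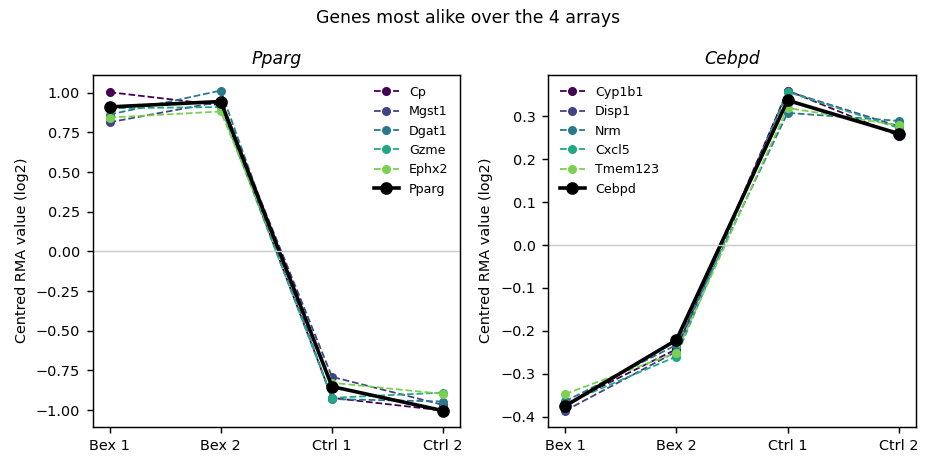
RMA values (log2) centred on each gene's mean over the 4 arrays, Bex arrays left of Ctrl arrays, for Pparg (left panel) and Cebpd (right panel) in black with the 5 named genes of smallest distance to each. The lines nearly coincide, with distances of 0.06 to 0.07 for Pparg and 0.02 for Cebpd, and the vertical scales of the panels differ.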

How the data were processed

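Biotin-labelled, amplified RNA of C2C12 cells was read on Affymetrix mouse gene arrays. The authors deposited log2 values, which per the labels come from RMA on core exons in Expression Console; RMA evens out overall level between arrays. A second table deposited by the authors, for which the submitters' processing notes name Transcriptome Analysis Console, holds log2 averages per group, a signed linear fold change (a score: Bex over Ctrl if positive, minus Ctrl over Bex if negative) and ANOVA and FDR p-values, per the file headers. For versions, build and annotation release: not given in the sources used here. It holds 559 rows, all with an ANOVA p-value up to 0.0500, and 14 with several symbols were not used as genes.

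Bex minus Ctrl was fitted over all 35557 clusters with limma 3.58.1 in R 4.3.3 (lmFit, eBayes, no covariates, Benjamini-Hochberg adjustment, threshold 0.05). The fits were also run on simulated arrays with independent noise and no batches. The outcome is not reported here and is not used to judge either fit. Arrays were grouped by their titles; no pair shared more than 58 identical values. Only 2 arrays per group limit the precision. Of a gene's several clusters the one of highest mean was used. Genes named are Pparg, Cebpd, list genes paired with a cluster, and the 5 genes most alike to each. The 12 lists and the genes were chosen with earlier results of these data known, and no list was tested as a set. Promoter sequences are RefSeq's (GRCm38.p6), cut to the bases before each start; no window for Cebpd was used here. Python 3.11.15 with pandas 2.3.3, numpy 2.4.6 and matplotlib 3.10.9 was used for counts and plots. Alternatives were a variance trend, quantile normalization, a median shift, the replicate block, 2 filters, other thresholds, each array left out and the authors' averages.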

Additional observations from a re-analysis of the deposited data

How the results depend on the processing

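The log2 differences of Pparg and Cebpd kept their direction in each alternative, but the block, the variance trend and both filters cannot move a difference of means, and leaving out 1 of 2 arrays can move it only within the spread of that group, so this says little of stability. Pparg ranged from 1.78 to 1.93 and Cebpd from -0.67 to -0.52 with each array left out, and the authors' deposited averages gave 1.81 and -0.62. Cebpd, chosen by a limit of 1.5-fold, was smaller than that limit with a median shift (-0.57), without Bex 1 (-0.52) and without Ctrl 1 (-0.56). No label ties same-numbered arrays by more than the number. The correlation of their deviations was 0.008 over all clusters and 0.045 without clusters of low ID. With only 2 arrays per group this cannot show whether they share a batch of cells. With the replicate number as a block the differences stayed at 1.85 and -0.60 and the count of limma calls stayed at 0. The count of 0 clusters was also 0 with quantile normalization, with a median shift and without each array (0 to 0, where the lone array is assumed to vary like the other group). It became 427 with a variance trend, 105 without the lowest 30% of clusters, 297 without clusters of low ID, 80 at an adjusted p of 0.1 and 2292 with 1.5-fold alone. Calls among the 46 named list genes, counted under alternatives added after seeing the data, were 31, 17 and 27 with the first 3 of these settings and 0 with the block, the shift, quantile normalization and each array left out (0 to 0). Each gene had 1 row in the authors' table, and clusters outside it have no name here, so an average over clusters was not made. The cause of these differences between settings was not tested.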
